A study of Rattus norvegicus with 36 samples.

Results

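Transcripts of hepatic bile acid synthesis and its feedback control, 10 genes in all, were followed in the livers of 36 rats dosed with the flame retardant decabromodiphenylethane (DBDPE) or with vehicle. They were chosen by gene name: Cyp7a1, Cyp8b1, Cyp27a1, Cyp7b1 and Baat of the synthetic route, and Nr0b2, Nr1h4, Nr5a2, Fgfr4 and Klb of its control. Of these 10 genes, 9 were measured, by 11 of the 31042 probe sets on the array, among 14217 distinct genes named. The annotation used here names no probe set for Klb, the co-receptor of Fgfr4, so it was not analysed here. The rats were male Sprague Dawley, aged 7 weeks when dosing began, and were gavaged daily for 5 days with 5 ml/kg of corn oil. The oil carried no DBDPE (vehicle), a low dose of 0.1 or 0.97 mg/kg, a middle dose of 9.71 mg/kg, or a high dose of 97.1 or 970 mg/kg, with 6 animals in each of the 6 groups. All groups received corn oil, and the left liver lobe was taken 1 day after the last gavage. Each animal gave 1 array. The question of the study is which liver transcripts differ between a dose and vehicle, and here it is asked whether Cyp7a1 and Nr0b2 differed with dose or between animals, and whether the other steps followed.

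Bile acids are made from cholesterol in hepatocytes. Cyp7a1 encodes the rate-limiting enzyme of the classic pathway, while Cyp27a1 and Cyp7b1 act in the alternative pathway. Bile acids bind the nuclear receptor FXR, encoded by Nr1h4, which induces Nr0b2. Its product SHP is a repressor that lacks a DNA-binding domain and acts on other factors at the Cyp7a1 promoter, among them the product of Nr5a2. A second arm runs through an intestinal hormone that acts on hepatocytes by Fgfr4 and its co-receptor and lowers Cyp7a1.

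Because Nr5a2 binds promoters of this pathway, the promoters of the members were searched for its motif, CAAGGNCA, on both strands. RefSeq promoters of rat build GRCr8 were matched for 7 of the 10 genes (Nr0b2, Cyp8b1, Cyp27a1, Nr5a2, Fgfr4, Klb and Baat), and the 250 bases before the start were read. Cyp7a1, Cyp7b1 and Nr1h4 were not searched. The motif was present in 3 of these 7 promoters and in 5.58% of all 33469 promoters of that length. The 3 are shown with the motif in capitals, because they place Nr0b2 beside the synthetic genes Cyp8b1 and Cyp27a1.
Nr0b2, chr5:151062910-151063159, + strand: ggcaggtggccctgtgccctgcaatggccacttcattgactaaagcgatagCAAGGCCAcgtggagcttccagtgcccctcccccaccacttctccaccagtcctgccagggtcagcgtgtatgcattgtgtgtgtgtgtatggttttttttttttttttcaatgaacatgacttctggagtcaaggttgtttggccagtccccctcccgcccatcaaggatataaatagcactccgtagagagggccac
Cyp8b1, chr8:130457593-130457842, minus strand: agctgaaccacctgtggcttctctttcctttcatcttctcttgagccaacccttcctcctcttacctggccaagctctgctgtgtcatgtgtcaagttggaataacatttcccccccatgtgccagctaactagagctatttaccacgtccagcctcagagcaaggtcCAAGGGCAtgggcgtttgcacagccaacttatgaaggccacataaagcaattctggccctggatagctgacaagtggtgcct
Cyp27a1, chr9:83713282-83713531, + strand: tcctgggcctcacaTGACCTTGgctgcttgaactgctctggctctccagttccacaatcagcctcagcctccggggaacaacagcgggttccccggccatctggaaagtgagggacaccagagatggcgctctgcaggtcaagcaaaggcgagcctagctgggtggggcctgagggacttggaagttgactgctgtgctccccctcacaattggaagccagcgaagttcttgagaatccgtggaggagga
The motif lay 199 to 192 bases before the start of Nr0b2, 82 to 75 bases before that of Cyp8b1, and 236 to 229 bases before that of Cyp27a1, where it reads on the strand opposite to the gene. An 8-letter match is a description of these letters and not a binding site. The STAT motif TTCNNNGAA was in 2 of the 7 promoters, Nr0b2 and Baat, against 7.67% of all promoters. The FXR inverted repeat, the Foxa motif TGTTTAC and the Onecut1 motif ATTGATT were in 0 of these 7, which do not include Cyp7a1, against 0.0388%, 3.21% and 2.28% of all promoters. At these shares 0 of 7 is the likely count, and only 250 bases were read, so nothing is concluded from it.

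The arrays were alike in scale, as RMA sets them to a common one, so this is not a check of quality. Array medians lay between 5.07 and 5.12 log2 units, and arrays correlated at r between 0.993 and 0.997 over probe sets, which are not independent replicates. The tissue label was borne out by its markers: all 7 measured hepatocyte markers were at or above the 99.7th percentile of mean log2 level, and their mean per animal lay between 13.86 and 13.89 at 970 mg/kg and between 13.86 and 13.90 in vehicle. Alb, at a mean of 14.66, lay close to the highest value of the series, 14.68. Whether signals so high can follow a change in hepatocyte content was not tested. The pancreatic markers Prss1 and Amy2a3 were at the 17.1th and 4.95th percentiles, while Cela1, also listed for pancreas, was at the 95.6th. In whole liver RNA, fewer cells of a type and less RNA per cell cannot be told apart.

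No member gene passed the test at any dose. In limma's comparison of each dose with vehicle, adjusted over all probe sets at 0.05, 0 of 9 member genes were called at each of the 5 doses. Of all probe sets, 0% were called at each of the 3 lower doses, and 0.00644% at 97.1 and at 970 mg/kg. The same count of 0 of 9 was found for the slope on the dose step and for the F test over all groups, each of which called 0.00644% of all probe sets. At an unadjusted p under 0.05 stood 0 of 9 members at 0.1 mg/kg (4.46% of all probe sets) and 0 at 0.97 mg/kg (4.92%). Cyp7a1, Cyp27a1 and Nr5a2 did at 9.71 mg/kg (5.06%), and Cyp7a1 and Nr0b2 at 97.1 mg/kg (5.42%) and at 970 mg/kg (4.87%). The values of Cyp7a1 and Nr0b2 by dose are therefore given as a description; both genes were chosen with the earlier result for Cyp7a1 known.

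Cyp7a1 had the lowest mean at the top dose and the highest in vehicle. Its log2 level at 970 mg/kg was 9.53, 9.95, 9.61, 11.94, 10.22 and 11.16 in replicates 1 to 6, against 11.62, 11.41, 11.93, 11.78, 11.60 and 10.52 in vehicle replicates 1 to 6. In the top dose group, 4 of 6 animals lay below every vehicle animal, and replicate 4 lay above them all. A single vehicle animal, replicate 6, stood well below the other vehicle animals. The mean was 10.40 ± 0.96 at 970 mg/kg and 11.48 ± 0.50 in vehicle (SD, n = 6 each), a log2 difference of -1.07 (95% interval -1.85 to -0.30). This is 0.475-fold, and limma's adjusted p was 0.966. The interval leaves out 0, but at an unadjusted p of 0.00817 the difference is not separated from the many tests made.

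The lower doses did not form an even series for Cyp7a1. From low to high, with vehicle at 11.48, the mean was 10.79 ± 0.93 at 0.1 mg/kg, 11.13 ± 0.41 at 0.97 mg/kg, 10.56 ± 0.77 at 9.71 mg/kg and 10.58 ± 0.52 at 97.1 mg/kg (SD, n = 6 each). The animals of these groups spanned 9.33 to 11.79 (median 10.97) at 0.1 mg/kg, 10.38 to 11.54 (median 11.17) at 0.97 mg/kg, 9.88 to 11.88 (median 10.36) at 9.71 mg/kg and 9.73 to 11.12 (median 10.61) at 97.1 mg/kg. Every dose group overlapped vehicle, and the mean at 0.1 mg/kg was below that at 0.97 mg/kg. The log2 difference from vehicle was -0.68 (-1.46 to 0.09), -0.35 (-1.13 to 0.43), -0.92 (-1.70 to -0.14) and -0.90 (-1.68 to -0.12) in that dose order, with limma adjusted p from 0.900 to 0.999. These 5 comparisons share the vehicle arrays, so 1 high vehicle mean enters them all. The slope was -0.19 log2 units per dose step (-0.32 to -0.06), with a limma adjusted p of 0.851.

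Nr0b2, the feedback repressor, had its 2 lowest means at the 2 highest doses. Its log2 level at 970 mg/kg was 7.80, 8.23, 7.51, 9.97, 7.87 and 6.90 in replicates 1 to 6, against 9.44, 8.99, 8.999, 9.51, 8.30 and 8.36 in vehicle. Of the top dose animals, 5 of 6 lay below every vehicle animal, while replicate 4 lay above them all, as it did for Cyp7a1. The mean was 8.05 ± 1.04 at 970 mg/kg and 8.93 ± 0.52 in vehicle (SD, n = 6 each), a log2 difference of -0.89 (-1.65 to -0.12). This is 0.541-fold, and limma's adjusted p was 0.966. At 97.1 mg/kg the animals lay between 7.18 and 9.09 (median 8.14), with 4 of 6 below every vehicle animal, and the difference was -0.88 (-1.65 to -0.11) with a limma adjusted p of 0.900. At the 3 lower doses the Nr0b2 mean was 8.44 ± 0.89 at 0.1 mg/kg, 8.83 ± 0.44 at 0.97 mg/kg and 9.05 ± 0.41 at 9.71 mg/kg (SD, n = 6 each). Their differences from vehicle were -0.49, -0.11 and 0.12, so 9.71 mg/kg stood on the vehicle side for Nr0b2 and on the low side for Cyp7a1. The Nr0b2 slope was -0.15 log2 units per dose step (-0.29 to -0.02), with a limma adjusted p of 0.863.

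**Figure D1:**
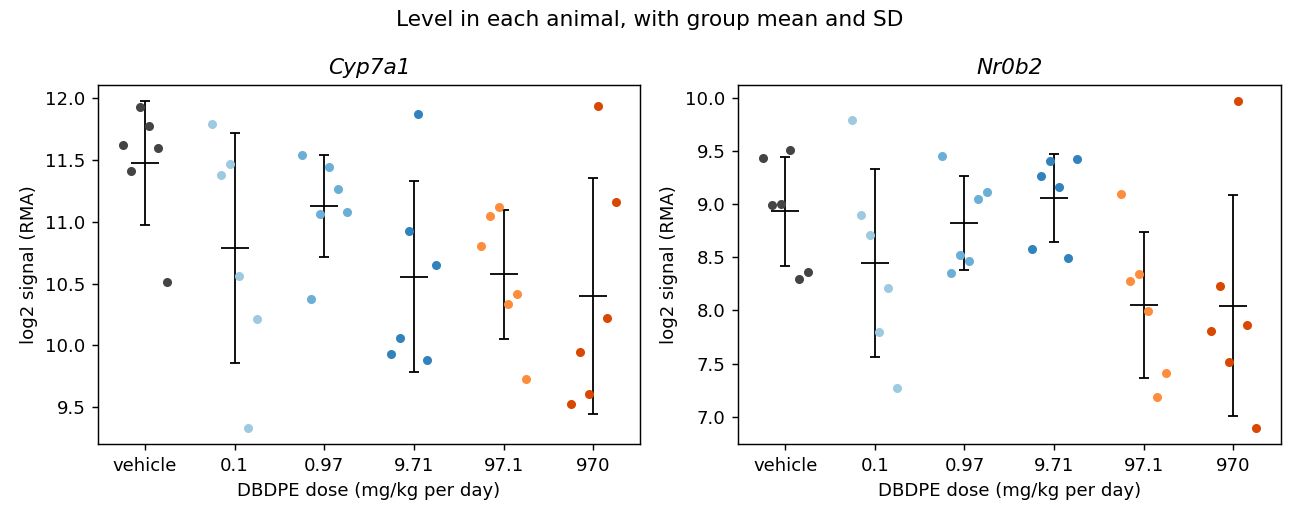
Log2 signal of Cyp7a1 (left) and Nr0b2 (right) in each of the 36 animals by DBDPE dose, from vehicle to 970 mg/kg per day; points are animals in replicate order, the bar is the group mean and the whiskers are 1 SD. At 970 mg/kg, 1 animal was the highest of its group for both genes (11.94 for Cyp7a1 and 9.97 for Nr0b2), above every vehicle animal.

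That animal, replicate 4 of the 970 mg/kg group, weighed on both differences. Without it the log2 difference at 970 mg/kg was -1.38 for Cyp7a1 and -1.27 for Nr0b2, and the smallest limma adjusted p of either over all single-animal omissions was 0.474. No omission brought a member gene past the threshold for dose.

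The other synthetic genes stayed within narrow limits across dose. Cyp8b1, whose enzyme sets the share of cholic acid, had a log2 mean of 11.30 ± 0.13 at 970 mg/kg and 11.37 ± 0.27 in vehicle (SD, n = 6 each), a difference of -0.07 (-0.35 to 0.20). Cyp27a1, the mitochondrial sterol hydroxylase that opens the alternative pathway, had 11.25 ± 0.12 at 970 mg/kg and 11.27 ± 0.12 in vehicle, a difference of -0.02 (-0.16 to 0.12). Baat, which joins bile acids to taurine or glycine, had 12.66 ± 0.03 in both groups, and its interval ran from -0.07 to 0.07. For Baat the interval excludes a change as large as the point estimate for Cyp7a1, and so do those for Cyp8b1 and Cyp27a1. Cyp7b1, the oxysterol hydroxylase of the alternative pathway, had a mean of 3.02 over all animals, below the median of every array, so its difference of -0.08 (-0.28 to 0.13) is one of low signals.

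The receptor genes also stayed close to vehicle. Nr1h4 had a log2 mean of 9.74 ± 0.18 at 970 mg/kg and 9.87 ± 0.13 in vehicle (SD, n = 6 each), a difference of -0.13 (-0.32 to 0.07), while at the 4 lower doses its mean lay between 9.99 and 10.05. Fgfr4 had 7.44 ± 0.08 at 970 mg/kg and 7.43 ± 0.09 in vehicle, a difference of 0.01 (-0.08 to 0.10). Nr5a2 had 8.62 ± 0.16 at 970 mg/kg and 8.69 ± 0.20 in vehicle by its probe set of highest mean, a difference of -0.07 (-0.26 to 0.13). Its other probe sets gave -0.11 and -0.16 at 970 mg/kg. At 9.71 mg/kg the 3 Nr5a2 probe sets gave differences of -0.25, -0.28 and -0.26, with limma adjusted p of 0.967 or more. Over the 7 genes other than Cyp7a1 and Nr0b2 and the 5 doses, the limma adjusted p was 0.966 or more in every comparison, and no dose group was separated from vehicle in any member gene. Over all probe sets, groups were separated in 0.139%, 0.235%, 0.18%, 0.151% and 0.2% from 0.1 to 970 mg/kg.

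**Figure D2:**
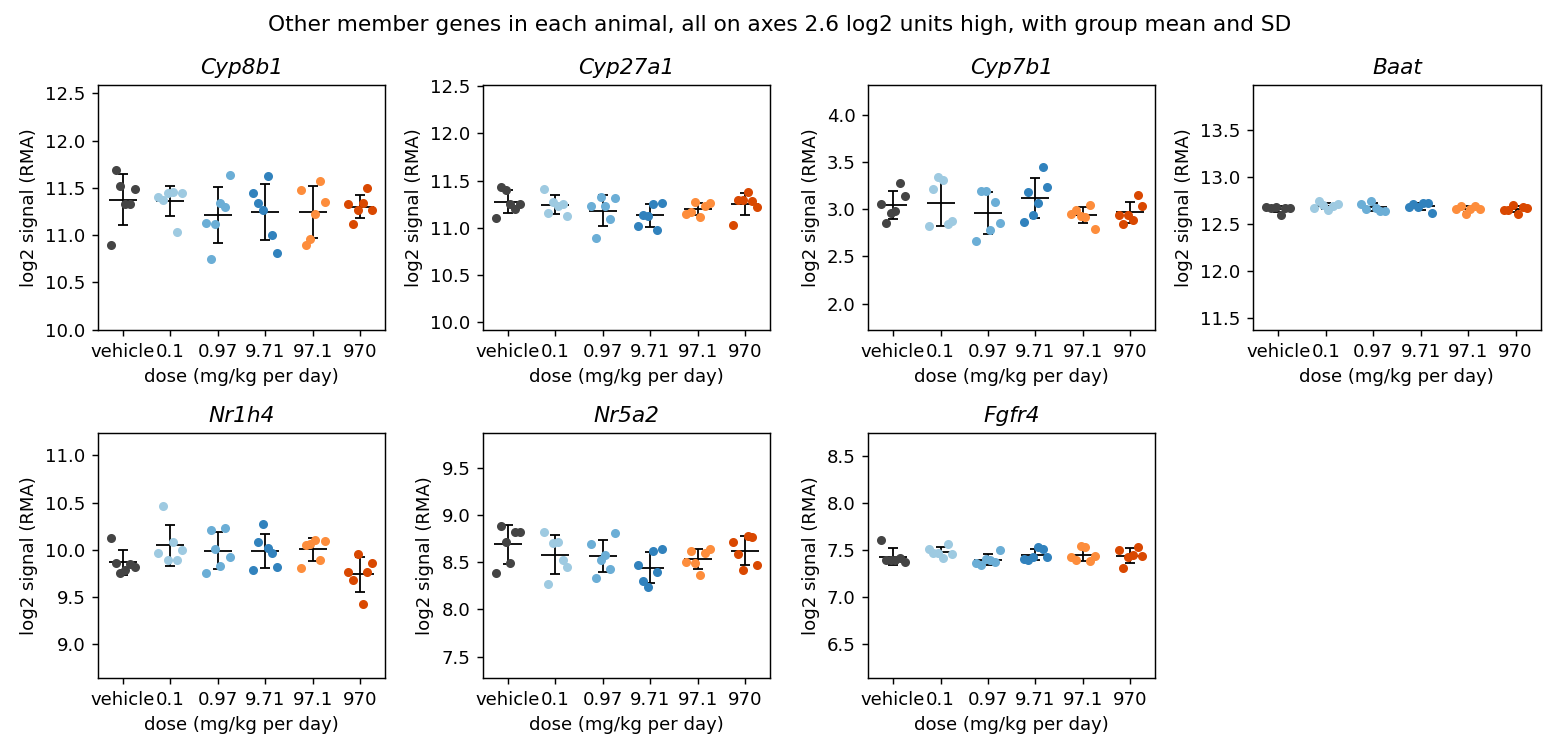
Log2 signal of the other 7 measured genes in each animal by dose, all on axes of equal height; points are animals, the bar is the group mean and the whiskers are 1 SD. The points of Baat and Fgfr4 form almost flat bands, those of Cyp8b1 spread most, and no dose group leaves the range of vehicle as a whole.

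The member genes differed widely in their spread between animals. The SD between animals of a dose group was 0.72 log2 units for Cyp7a1 and 0.70 for Nr0b2, the 99.8th and 99.7th percentiles of all probe sets. Only 75 and 83 probe sets had a larger one, and the median over all probe sets was 0.137. The SD was 0.25 for Cyp8b1, 0.18 for Cyp7b1, 0.17 for Nr1h4 and 0.17 for Nr5a2. Cyp27a1 had an SD of 0.12 (30.8th percentile), Fgfr4 0.07 (2.32th percentile) and Baat 0.04 (0.116th percentile). The rate-limiting enzyme and the repressor gene were among the most variable probe sets of the array, and the conjugating enzyme among the least. Because the members were chosen with earlier results of these data known, these ranks are a description. The mean signal of Baat was at the 99.5th percentile of all probe sets, and the part of signal level in its small SD was not tested. Differences between dose groups held 24.5% of the variance of Cyp7a1 and 28.5% of that of Nr0b2, where the median over all probe sets was 12.6%. For Nr1h4 the share was 30.4% and for Cyp8b1 6.66%, and none of these shares passed limma's F test (adjusted p 0.999 for each).

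**Figure D3:**
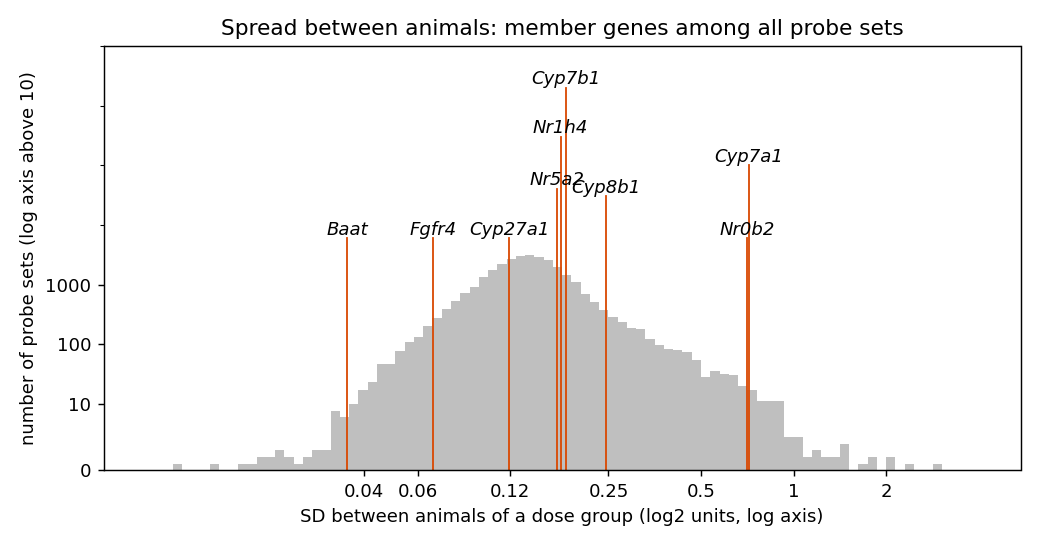
Histogram of the SD between animals of a dose group (log2 units, log axis) over all 31042 probe sets, with the count on an axis that is logarithmic above 10; vertical lines mark the 9 measured genes by their probe set of highest mean, and line height carries no value. Cyp7a1 (0.72) and Nr0b2 (0.70) lie far to the right of the median of 0.137, and Baat (0.04) lies at the left edge.

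Cyp7a1 and Nr0b2 varied together between animals of the same dose. After removal of dose group means, Pearson's r was 0.59 (permutation within dose groups, p = 0.00149) and Spearman's rho was 0.59 (permutation p = 8.2e-04) over 36 animals, both two-sided. Without the 2 animals farthest from the median of Cyp7a1, r was 0.63. The correlation was above 0 in 6 of 6 dose groups, where r lay between 0.53 and 0.72. The genes lay on the same side of their group means in 29 of 36 animals: in 4 of 6 vehicle animals, and in 6, 4, 5, 6 and 4 of 6 from 0.1 to 970 mg/kg.

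In limma's fit of all probe sets on the Cyp7a1 level with dose group as a term, Nr0b2 was 0.58 log2 units higher per log2 unit of Cyp7a1 (adjusted p = 0.0273). Nr0b2 was 1 of 8 other member genes called in that fit, where 0.747% of all probe sets were called, 0.322% with Cyp7a1 and 0.425% against it. In the reverse fit on Nr0b2, Cyp7a1 had an adjusted p of 0.0517, and 0 of 8 members were called where 0.232% of all probe sets were (72 of 31041, 0.103% with Nr0b2 and 0.129% against it). So the call holds in 1 direction of the fit and lies just outside the threshold in the other. With unmoderated variances the limma adjusted p of Nr0b2 in the fit on Cyp7a1 was 0.0659, and with an intensity trend and robust prior it was 0.0557. The reverse fit passed after a filter at the median level (0.0369) and with the beta-actin covariate (0.0446).

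Single animals decide that call. Replicate 4 at 970 mg/kg was high in both genes by 1.53 and 1.92 log2 units relative to its group mean, and replicate 6 at 970 mg/kg was high in Cyp7a1 by 0.76 and low in Nr0b2 at -1.15. Without replicate 4 at 970 mg/kg the correlation was 0.47 and Nr0b2's limma adjusted p was 0.286. Without replicate 1 at 0.1 mg/kg that adjusted p was 0.0845, and without replicate 6 of vehicle it was 0.0509. Without replicate 6 at 970 mg/kg the correlation was 0.72. Over all 36 omissions r stayed between 0.47 and 0.72.

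**Figure D4:**
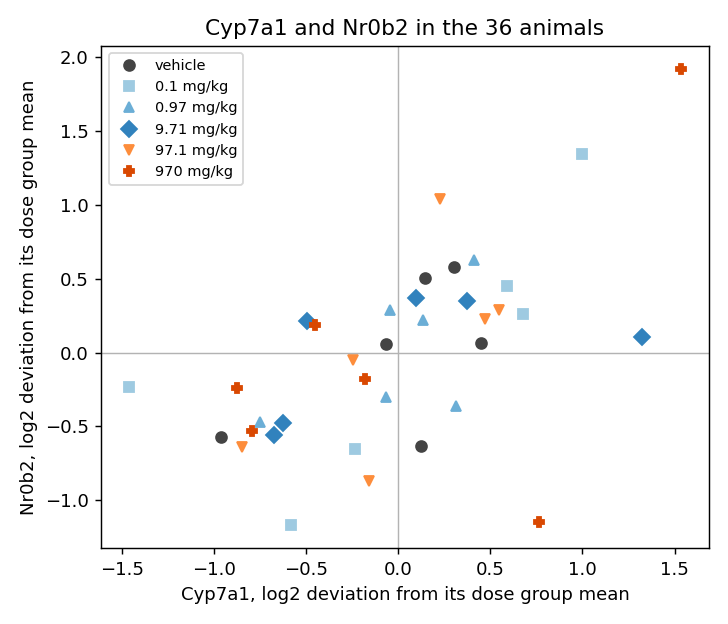
Nr0b2 against Cyp7a1 in the 36 animals, each as the log2 deviation from the mean of its dose group; symbols mark the groups. Most animals (29 of 36) fall at the lower left and upper right, replicate 4 at 970 mg/kg lies at the upper right corner, and replicate 6 at 970 mg/kg lies at the lower right.

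No other step passed the test with Cyp7a1; whether their correlations differ from that of Nr0b2 was not tested. Within dose groups its r with Cyp27a1 was 0.42 (limma adjusted p 0.424), with Nr5a2 0.18, with Cyp8b1 0.16 and with Fgfr4 0.11. Its r with Cyp7b1, Nr1h4 and Baat was -0.03, -0.10 and -0.11, and the limma adjusted p of every member but Nr0b2 was 0.424 or more. For Nr0b2 the values ran from -0.32 with Baat to 0.34 with Cyp27a1. These are 36 pairs of members in all, of which that of Cyp7a1 and Nr0b2 was the one tested by permutation.

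The receptor gene Nr1h4 and the activator gene Nr5a2 varied in opposite directions. Their r within dose groups was -0.64 and it was below 0 in 6 of 6 groups, from -0.79 to -0.10. The limma adjusted p was 0.0390 in the fit on Nr1h4, where 0.209% of all probe sets were called (0.0387% against it), and 0.0227 in the fit on Nr5a2, where 0.664% were called (0.261% against it). The fits on these genes were added after the values were seen. The other Nr5a2 probe sets gave r of -0.62 (adjusted p 0.0566) and -0.55 (adjusted p 0.104) with Nr1h4, so the call rests on 1 of 3 probe sets. Centring each array on its median ended both calls, with limma adjusted p of 0.0861 in the fit on Nr1h4 and 0.0585 in the fit on Nr5a2. Unmoderated variances ended that on Nr1h4 (0.0516). Leaving out 1 animal ended the call in the fit on Nr1h4 in 11 of 36 cases, with adjusted p up to 0.198 without replicate 2 at 0.1 mg/kg. In the fit on Nr5a2 it ended in 2 of 36, without that animal (0.0878) and without vehicle replicate 1 (0.0648).

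The wider set of genes was read from 12 lists of bile acid, regulatory and cell marker genes. At 970 mg/kg, 0 genes of any list passed limma's test, and the median log2 difference was 0.00 for other synthesis and conjugation enzymes, 0.02 for bile acid transport, 0.03 for other regulators of Cyp7a1 and -0.05 for sterol synthesis, with -0.004 over all probe sets. The fits on Cyp7a1 within dose groups gave calls in 3 of the 12 lists. The lists were chosen with earlier results of these data known, so the counts below are a description.

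Regulators of Cyp7a1 gave 3 calls among 22 measured genes, where 0.747% of all probe sets were called. Foxa2, a forkhead factor of hepatocytes, was 0.60 log2 units lower per log2 unit of Cyp7a1 (r -0.72, limma adjusted p = 0.00122). Onecut1, a homeobox factor of liver and bile duct development, had a change of -1.29 (r -0.64, adjusted p = 0.00915), and Gps2, a corepressor subunit, one of 0.11 (r 0.62, adjusted p = 0.0375). Foxa2 passed in all 36 omissions, whereas Onecut1 had an adjusted p of 0.0629 without replicate 4 at 970 mg/kg and Gps2 failed in 9 of 36. Prox1, a corepressor of Nr5a2, had r 0.57 with an adjusted p of 0.0587. The median r of the list was 0.08, against -0.0006 over all probe sets.

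Foxa2 was a gene of wide spread in every group. Its log2 level ran from 8.27 to 9.78 (median 9.51) at 970 mg/kg and from 7.99 to 9.67 (median 8.50) in vehicle, and these ranges overlapped. In replicate 4 at 970 mg/kg, the animal of highest Cyp7a1, it was 8.27, the lowest of its group. Onecut1 spanned 6.32 to 9.86 (median 8.95) at 970 mg/kg and 5.90 to 9.50 (median 7.18) in vehicle. The Onecut1 difference of 1.22 at 970 mg/kg had a limma adjusted p of 0.966.

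Of 10 measured genes of the fasting and glucocorticoid response, 3 varied with Cyp7a1 and 1 against it (0.322% and 0.425% of all probe sets). Pck1, the gluconeogenic enzyme, changed by 0.32 per log2 unit of Cyp7a1 (r 0.62, limma adjusted p = 0.0173). Tsc22d3, a glucocorticoid target, changed by 0.43 (r 0.59, adjusted p = 0.0275), and Igfbp1, an insulin-repressed secreted protein, by 0.70 (r 0.59, adjusted p = 0.0278). Pdk4, the kinase that inhibits pyruvate dehydrogenase and is induced on fasting, went the other way, at -0.55 (r -0.70, adjusted p = 0.00211). Pck1 and Pdk4, both genes raised in fasting, thus lay on opposite sides. Pdk4 passed in all 36 omissions, Pck1 in 34, Tsc22d3 in 32 and Igfbp1 in 31. Other variance settings ended 2 of these calls: the limma adjusted p of Tsc22d3 was 0.0656 with unmoderated variances and 0.0557 with the intensity trend, and that of Igfbp1 was 0.0673 and 0.0573. Without replicate 4 at 970 mg/kg the adjusted p was 0.0559 for Pck1 and 0.338 for Tsc22d3. Without replicate 4 at 9.71 mg/kg it was 0.0505 for Pck1 and 0.0669 for Igfbp1.

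Among the other synthesis and conjugation enzymes, 1 of 18 varied with Cyp7a1 (0.322% of all probe sets). This was Por, the reductase that passes electrons to microsomal cytochromes P450, at 0.26 per log2 unit (r 0.62, limma adjusted p = 0.0183). Its Spearman's rho was 0.51, and without replicate 4 at 970 mg/kg its adjusted p was 0.261. The mean of its 2 probe sets changed by 0.21 per log2 unit, with a limma adjusted p of 0.128. Acox2, a peroxisomal oxidase that shortens the bile acid side chain, had r -0.40, and the 18 genes had a median r of 0.01.

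Bile acid transport genes gave no call with Cyp7a1 among 15. The highest r belonged to Abcb4, the phospholipid flippase of bile, at 0.48 (limma adjusted p 0.222), and to Slc10a1, the sodium-dependent uptake carrier, at 0.44 (0.691). At the top dose Abcc4 and Abcc3, efflux pumps of the sinusoidal membrane, had log2 differences of 0.27 and 0.24, with limma adjusted p of 0.966 for each. Sterol synthesis genes also gave 0 of 8 with Cyp7a1, although 7 of the 8 had r above 0, with a median of 0.28 and a highest value of 0.38 for Fdps. The median r over all probe sets was -0.0006. With Nr0b2 all 8 had r below 0, with a median of -0.08, and the 8 are not independent.

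Clock genes were read because Cyp7a1 has a daily rhythm. None of 17 was called with Cyp7a1, and Bhlhe40, a transcriptional repressor of the clock, came nearest at r -0.50 (limma adjusted p 0.131). With Nr0b2 1 of 17 was called, where 0.232% of all probe sets were. This was Usp2, a rhythmic deubiquitinase, at 0.38 per log2 unit (r 0.65, limma adjusted p = 0.0228). Usp2 was lost without replicate 4 at 970 mg/kg (adjusted p 0.517), where its level was the highest of any animal, and without replicate 1 at 0.1 mg/kg (0.137). With unmoderated variances its limma adjusted p was 0.0630. The log2 differences at 970 mg/kg of Nr1d1, Nr1d2 and Cry2 were -0.61, -0.47 and -0.23, with limma adjusted p of 0.966 for each. The clock time at which each liver was taken is not given in the sources used here, and its part in these values was not tested.

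With Nr0b2 as the covariate, 2 further genes of the 12 lists passed, both against it. Onecut1 changed by -1.26 per log2 unit of Nr0b2 (r -0.62, limma adjusted p = 0.0385), and Pdk4 by -0.49 (r -0.60, adjusted p = 0.0472). Without replicate 4 at 970 mg/kg these adjusted p were 0.213 for Onecut1 and 0.464 for Pdk4, and leaving out 1 animal ended the call in 8 and 26 of 36 cases. Both calls also ended with unmoderated variances (0.0906 and 0.105) and with the intensity trend (0.0773 and 0.0881). That of Pdk4 further ended with averaged probe sets (0.0650) and with the beta-actin covariate (0.0706). Over all probe sets 50 were called in both fits, which is 21.6% of the 232 called with Cyp7a1 and 69.4% of the 72 called with Nr0b2. The count called with Nr0b2 was 1 without replicate 4 at 970 mg/kg, 8 without replicate 1 at 0.1 mg/kg, 9 without replicate 6 at 0.1 mg/kg and 47 without replicate 3 at 970 mg/kg. The count called with Cyp7a1 was 95 without replicate 4 at 970 mg/kg.

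**Figure D5:**
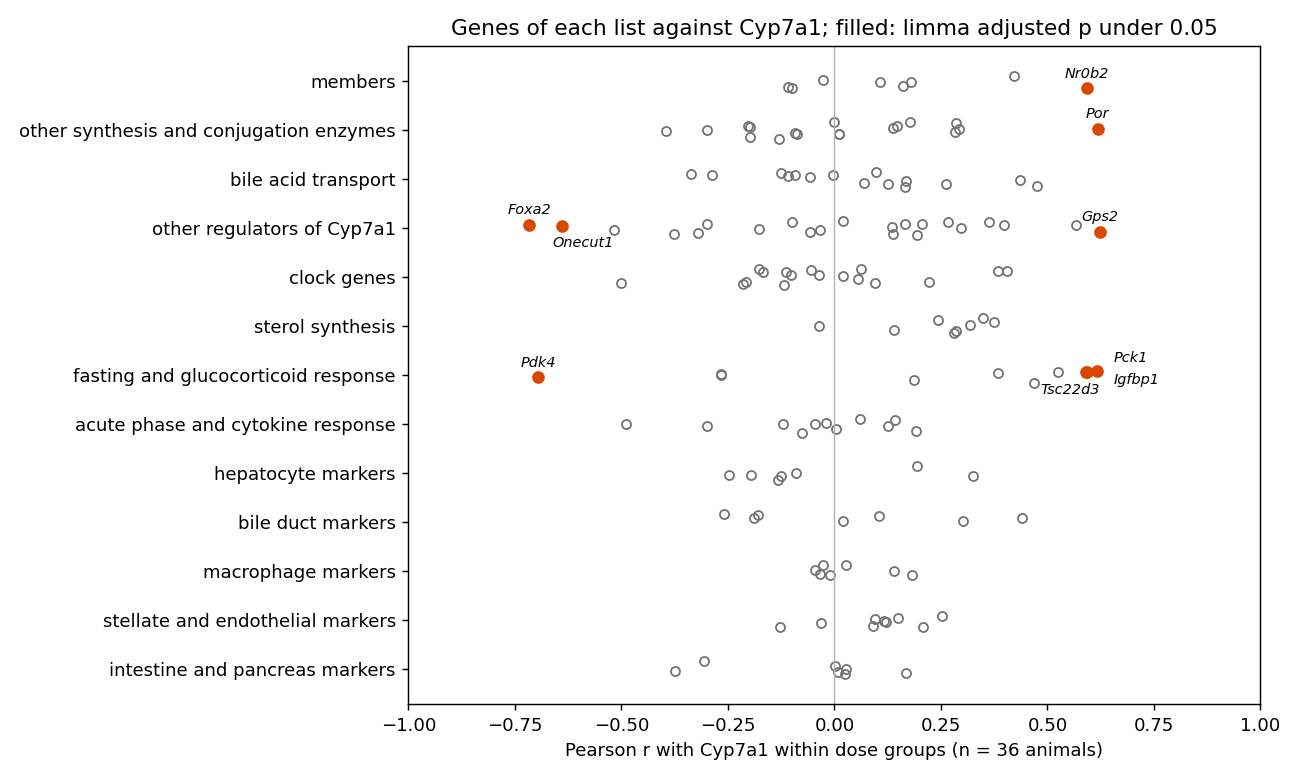
Pearson's r with Cyp7a1 within dose groups (horizontal axis, 36 animals) for the genes of each list (rows); filled and named points have a limma adjusted p under 0.05 over all probe sets, and vertical scatter within a row carries no value. Calls fall in the rows of members, other synthesis enzymes, regulators and the fasting and glucocorticoid response, and the rows of cell type markers hold none.

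No marker of the cell types of liver or of its neighbours passed the test with Cyp7a1. None was called among 7 hepatocyte, 7 bile duct, 7 macrophage, 9 stellate and endothelial and 7 intestine and pancreas markers, and the highest r among all of these was 0.44 for Krt8. Krt8 and Krt18, listed for bile duct, were both at the 96.9th percentile of mean level, against 90.5 for Epcam and 54.9 for Krt19. They are not particular to bile duct cells. The hepatocyte markers lie near the top of the scale, which limits their test. None of 11 acute phase and cytokine genes was called, and Crp came nearest at r -0.49 (limma adjusted p 0.309). In the top dose group all 7 macrophage markers were above vehicle, with limma adjusted p of 0.966 or more. Their median log2 difference was 0.20, against -0.004 over all probe sets. The 7 mark 1 cell type in the same animals and are not independent, so their shared sign is not 7 results. Their mean log2 level per animal ran from 8.07 to 8.62 at 970 mg/kg and from 7.81 to 8.67 in vehicle. Their part in the lower Cyp7a1 and Nr0b2 means at that dose was not tested.

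The transcripts whose pattern was most like that of Cyp7a1 were taken by r within dose groups over 36 animals, from 20825 probe sets that name 1 gene. The highest were Sall1 (0.79), Fzd8 (0.76), Zfp446 (0.75), Irf2bp2 (0.74) and Eva1a (0.74). The lowest were Ell (-0.83), Rad54l2 (-0.79), Id3 (-0.76), Gpsm2 (-0.76) and Rtp3 (-0.76). Among these 20825 probe sets, 65 had a higher r with Cyp7a1 than Nr0b2 had. For Nr0b2 the highest were Klf15 (0.71), Irf2bp2 (0.69), Pim3 (0.68), Bcl2l11 (0.67) and Slc25a32 (0.67), and the lowest were Rad54l2 (-0.76), Mef2a (-0.71), Usp54 (-0.70), Gcnt4 (-0.70) and Bcl9l (-0.69). Irf2bp2 and Rad54l2 stood in the lists of both genes. Spearman's rho of the 5 highest with Nr0b2 ran from 0.39 (Slc25a32) to 0.58 (Bcl2l11), and of the 5 lowest from -0.70 to -0.57. Those with Cyp7a1 ran from 0.60 to 0.72 and from -0.85 to -0.70. Without replicate 4 at 970 mg/kg, 1 probe set was called with Nr0b2 and 95 with Cyp7a1.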

How the data were processed

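Liver RNA of 36 rats was hybridised to Affymetrix 3′ arrays, 1 array per animal. What the authors deposited is a log2 signal for each probe set, made with RMA and the affy package, per the submitters' processing notes; versions are not given in the sources used here. All values lay between 1.80 and 14.68. The 57 control probe sets were left out, and no filter on low values was applied. Genes came from the platform annotation, where 20826 probe sets name 1 gene, 436 several and 9780 none; 20758 of the 20826 were matched by Entrez ID to the RefSeq table. Where several probe sets name a gene, that of highest mean stands for it.

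A linear model over all 36 arrays compared each dose with vehicle with lmFit and eBayes of limma 3.58.1 (R 4.3.3), two-sided, with Benjamini-Hochberg adjustment over 31042 probe sets and a threshold of 0.05. A trend over steps coded 0 (vehicle) to 5 (970 mg/kg) and an F test were added. Covariation between animals was the coefficient of a gene's level in a fit with dose group as a term, over all other probe sets. Correlations used deviations from dose group means, with 100000 permutations within groups for Cyp7a1 and Nr0b2. The scripts were tested on simulated data. The precision is limited by the number of arrays. Samples are numbered within groups by the labels and were taken as separate rats, so p-values measure the spread between these samples.

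Named genes were the 10 members, up to 4 genes per list of smallest p with Cyp7a1 and up to 3 at 970 mg/kg, of which a selection is printed, and the 5 most and least alike to Cyp7a1 and Nr0b2; the Usp2 fit with Nr0b2 and Krt8 follow from the same lists. The members and lists were chosen with earlier results of these data known. The alternatives were centred arrays, unmoderated variances, an intensity trend with a robust prior, the replicate number as a block, averaged probe sets of a gene, a filter at the median level, a beta-actin 3′ to 5′ covariate, pairs of groups alone, other dose scales and each animal left out.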

Additional observations from a re-analysis of the deposited data

Results flagged for a closer look

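In 54 groups of 6 values (9 genes in 6 groups), 6 held 1 animal whose gap to its nearest neighbour passed Dixon's 95% critical value of 0.625 of the group's range, where chance alone gives about 1 in 20, or 2.7 groups. Cyp7a1 in vehicle replicate 6 was low at 10.52 log2 units, with a gap of 0.634 of the range, and it enters every difference from vehicle. Cyp8b1 in 0.1 mg/kg replicate 5 was low at 11.04, with a gap of 0.799, and this animal also had the lowest Cyp7a1 of its group. Nr1h4 was high at 10.46 in 0.1 mg/kg replicate 2 (gap 0.658) and at 10.13 in vehicle replicate 1 (gap 0.717). Fgfr4 was high at 7.61 in the same vehicle replicate 1, with a gap of 0.786. Baat in vehicle replicate 4 was low at 12.59, with a gap of 0.840 within a narrow range of 0.088 log2 units. Replicate 4 at 970 mg/kg, which decides several calls, did not pass this criterion for Cyp7a1 or Nr0b2.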

How the results depend on the processing

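Of 417 values of 55 results under settings other than omission of an animal, 370 were classed as the same. For a test this meant the same sign and side of the threshold. For a count it meant an equal count or a ratio of at most 1.5, and for an SD a shift smaller than the main SD. A further 8 reversed, all slopes with a limma adjusted p of 0.9925 or more, of which those per mg/kg are small by their unit. These were Fgfr4 at -0.00125 with centred arrays, -0.000247 with the beta-actin covariate and -0.00284 on log10 dose without vehicle; Cyp27a1 at 0.00322 on log10 dose and 4.49e-05 per mg/kg; Nr5a2 at 0.00559 and 5.83e-05; and Cyp8b1 at 8.02e-06 per mg/kg. The count of 0 member genes called for dose held under every setting. The 1 member called with Cyp7a1 became 0 with unmoderated variances, with the intensity trend and with the replicate block. With Nr0b2 1 member was called after the filter at the median level and with the beta-actin covariate. Probe sets called with Nr0b2 numbered 72, against 32 with unmoderated variances and 3 with the replicate block. Those called with Cyp7a1 numbered 232, against 67 with the replicate block, and 299 was the highest count over all settings. In 90 pairings of same-numbered animals the mean correlation was 0.00485 (-0.252 to 0.261, 15 over 0.1). A mean near 0 cannot show whether the numbers track an order or batch in some genes, which was not tested. Under the replicate block Foxa2 and Pck1 kept their calls with Cyp7a1, and limma's adjusted p was 0.148 for Nr0b2, 0.257 for Por, 0.106 for Onecut1, 0.0896 for Gps2, 0.0762 for Pdk4, 0.174 for Tsc22d3 and 0.0895 for Igfbp1. With Nr0b2 it was 0.178 for Usp2, 0.305 for Onecut1 and 0.357 for Pdk4, and for Nr1h4 and Nr5a2 it was 0.102 in the fit on Nr1h4 and 0.0678 in the fit on Nr5a2. Call losses under the other settings stand beside each result. The causes of these shifts were not tested. With each animal left out, the members called with Cyp7a1 numbered 0 to 1 and all probe sets 95 to 287; with Nr0b2 these were 0 to 1 and 1 to 108. Omission turned the sign of Nr0b2 at 0.97 mg/kg (-0.23 to 0.0094) and at 9.71 mg/kg (-0.0037 to 0.24), of Cyp27a1 (-0.058 to 0.020), Fgfr4 (-0.0065 to 0.046) and Baat (-0.015 to 0.0091) at 970 mg/kg, and of the Fgfr4 slope (-0.00185 to 0.00471). With 6 animals a group, the Cyp7a1 interval at 970 mg/kg spans more than 1.5 log2 units, and Cyp7b1 signals lie low on the array.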

Other observations

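Genes outside the lists, named after their values were seen, also varied with Cyp7a1 within dose groups, where 0.747% of all probe sets were called. Their calls were not tried with an animal left out or under other settings. Over all probe sets the calls with Cyp7a1 fell from 232 to 95 without replicate 4 at 970 mg/kg and to 67 with the replicate block. Cish and Socs2, inhibitors of cytokine and growth hormone signalling, changed by -0.98 (r -0.69, limma adjusted p = 0.00257) and -0.68 log2 units (r -0.60, adjusted p = 0.0234) per log2 unit of Cyp7a1, while Igf1, a hepatic target of growth hormone, changed by -0.02 (adjusted p 0.852). Nr3c1, the glucocorticoid receptor gene, changed by -0.14 (r -0.61, adjusted p = 0.0300), against a change of 0.43 for its target Tsc22d3. Zfp354a, a zinc finger gene, changed by 1.24 with Cyp7a1 (r 0.71, adjusted p = 0.00122) and by 1.13 with Nr0b2 (r 0.64, adjusted p = 0.0228). Rgs3 and Meox2 changed by -0.85 and -0.55 with Cyp7a1 (r -0.72 and -0.71, adjusted p 9.68e-04 and 0.00137).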
